A study of Bos taurus with 90 samples.

Results

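The liver transcriptome of Holstein-Friesian (HF) steers was compared between animals of low and high residual feed intake (RFI) on the first high-concentrate diet, H1. All libraries that carry the breed label Holstein-Friesian and the diet label H1 were taken, 7 from low RFI and 9 from high RFI steers, which makes 16 of the 90 libraries of the series. RFI is the difference between the feed a steer eats and the feed predicted from its weight and growth, so that a low RFI steer eats less than predicted. Both RFI groups received the same ration, made up of rolled barley at 860 g/kg, soya bean meal and molasses at 60 g/kg each, and a mineral and vitamin mix at 20 g/kg, with some grass silage beside it. The steers came from commercial herds with no genotype given, and RFI was ranked within the breed at the close of the phase, when liver was taken by percutaneous biopsy. RFI is a phenotype rather than a treatment, and neither the herd nor the age of each single steer is given in the sources used here, which state age as a mean per breed at the start of H1. Each of the 16 libraries is from a different steer, so the spread between libraries is a spread between animals.

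The liver makes glucose and plasma proteins, conjugates foreign compounds and peroxidation products with glutathione, oxidises amino acids and recycles purines. Glutathione S-transferases join glutathione to such compounds, and the mitochondrial dehydrogenases and nucleotide kinases keep carbon and phosphate flowing between pathways. These tasks consume energy, and for that reason liver has been a tissue of interest for feed efficiency. The comparison asks which of its transcripts differ in level between efficient and inefficient HF steers on a barley diet.

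Reads counted on genes numbered 9097695 to 47640205 per library, with a median of 20509252 for low and 16396667 for high RFI steers, and the group means differed by less than the spread between steers (two-sided exact permutation p = 0.942 over 11440 splits of the 16 steers). The library of low RFI steer 5632 stood apart from the rest. Its normalization factor from the trimmed mean of M-values (TMM) was 1.19, while those of the other 15 libraries ranged from 0.925 to 1.078, and its score on the second principal component of the 2000 most variable genes was 44.6 against -12.0 to 15.4 for the others. It was above all 15 other libraries for 1674 of 13025 genes, while for any other library this number lay between 330 and 1302. In the other direction it was not the most extreme. Steer 5632 was below all others for 1288 genes, steer 2220 for 1415 and steer 2069 for 1644. Where a log2 fold change or a call changed by much in a fit repeated without this library, this is stated. The edgeR adjusted p hold for all 16 steers unless said otherwise. The DESeq2 tests of differences between breeds or phases, and the fits over all groups of the series, were not repeated without the library of steer 5632. The tissue label could not be checked against hepatocyte markers, as none of the 12 fixed for this purpose has a name among the identifiers that could be named. Of the plasma protein genes that could be named, FGG (fibrinogen gamma chain) was at 9179 to 21078 CPM (read counts scaled to a common library size) and C5 (complement component 5) at 1565 to 3237 CPM over the 16 libraries.

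Among the named genes with the smallest p, levels in low RFI HF steers were lower for SNRPD3, AK3, GSTM1 and HPRT1 and higher for MOB3B, PARM1, ANPEP and CYTH3, but no gene passed the edgeR test after adjustment. Names were at hand only for genes of the study's own lists, and no enrichment was tested, so no function can be said to be over-represented, and the genes are grouped below for reading only. The quasi-likelihood test of edgeR gave 0 calls among 13025 genes (0%) at a Benjamini-Hochberg adjusted p under 0.1, and the smallest adjusted p was 0.315. Without adjustment, 863 genes (6.63%) had a p under 0.05, of which 422 were higher (3.24%) and 441 lower (3.39%) in low RFI steers. The number of calls depended on the tool. DESeq2 called 26 of the 13937 genes to which it gave an adjusted p (0.187%), 10 higher (0.0718%) and 16 lower (0.115%) in low RFI steers, edgeR's likelihood ratio test called 9 (0.0691%), limma-voom with sample quality weights called 1 (0.00768%), and edgeR with all 12 groups of the series in one fit called 13 of 13945 (0.0932%). The median log2 fold change of low over high RFI was 0.01 over all genes tested, 52.3% of genes had a value above 0, and the 5th and 95th percentiles were -0.31 and 0.39. The 26 genes called by DESeq2 are described below by what their products do. Since DESeq2 chose them on these same libraries, their p-values in edgeR and in the permutation test are descriptive and not independent evidence.

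**Figure D1:**
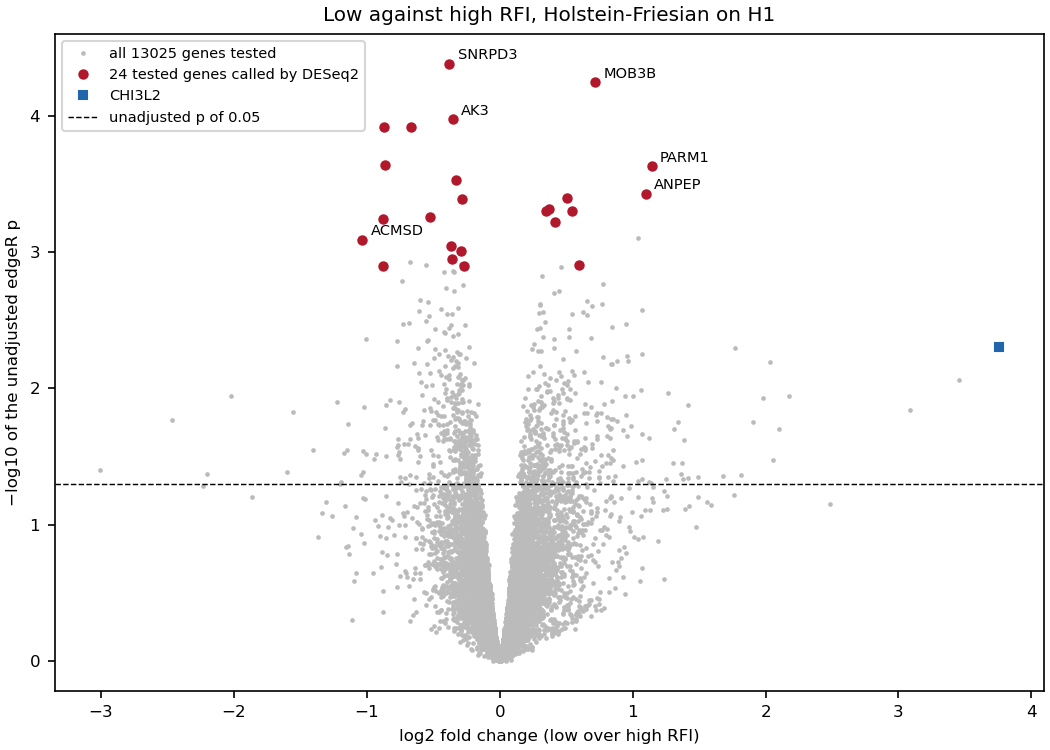
Log2 fold change of low over high RFI (x axis) against the negative log10 of the unadjusted edgeR p (y axis) for the 13025 genes tested in the 16 HF libraries on H1, with the 24 tested genes of the DESeq2 list in red and CHI3L2 as a blue square. SNRPD3 and MOB3B have the smallest p among lower and higher genes, and CHI3L2 has a log2 fold change of 3.75 that rests on 1 steer.

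Of these 26 genes, 24 passed edgeR's filter on low counts, 15 lower and 9 higher in low RFI steers, and all 24 had an unadjusted edgeR p under 0.05. The 15 lower genes had log2 fold changes between -1.04 and -0.27, with a median of -0.38. The 9 higher genes lay between 0.35 and 1.14, with a median of 0.54. The 2 groups of steers did not overlap for 4 of the 24 genes, namely AK3, HPRT1, DLD and ENSBTAG00000032859, all lower in every low RFI steer. Over all 13025 genes the groups did not overlap for 5 genes lower in low RFI steers (0.0384%) and for 0 genes higher in low RFI steers (0%). The fifth gene has no name here and was not called by DESeq2. Without steer 5632, DESeq2 no longer called CMPK1, DLD, DOCK8, GSTM1 (ENSBTAG00000037673), RAB40B, RAC1 and SNX24. It then gave no adjusted p to ANKS6, ANPEP, CYTH3, ENSBTAG00000032859, FCER1A, GUCY2D, LANCL2, LOC782233 and PARM1, and the adjusted p given below for these genes hold for all 16 steers. The edgeR adjusted p of the 24 genes were all higher without steer 5632. They rose from 0.315 to 0.478 for SNRPD3, from 0.315 to 0.817 for AK3 and from 0.463 to 0.837 for HPRT1.

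Both identifiers named GSTM1 and GSTA4, glutathione S-transferases of the mu and alpha classes, were lower in low RFI steers. GSTM1 (ENSBTAG00000017765) ranged from 98.0 to 268 CPM in low RFI steers, with a median of 123 CPM, and from 234 to 326 CPM in high RFI steers, with a median of 278 CPM. The low RFI steers lay below all high RFI steers except for steer 2220, which alone was at 268 CPM. The log2 fold change was -0.87 (SE 0.18, edgeR adjusted p = 0.315, DESeq2 adjusted p = 0.00606, exact permutation p = 0.00035). Without steer 2220 it was -1.07 and edgeR called the gene, with an adjusted p of 0.0109. Without steer 5632 it was -0.82, with an edgeR adjusted p of 0.817. With no steer left out, the gene was also the 1 gene called by limma-voom, with an adjusted p of 0.0933. The other GSTM1 identifier, ENSBTAG00000037673, ranged from 66.6 to 185 CPM in low and from 159 to 366 CPM in high RFI steers, with medians of 116 and 215 CPM. Its groups overlapped, and its log2 fold change was -0.88 (SE 0.23, edgeR adjusted p = 0.569, DESeq2 adjusted p = 0.0684). The GSTM genes form a family of similar copies between which reads can be split, so the levels of either identifier are uncertain.

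GSTA4, which acts on lipid peroxidation products such as hydroxynonenal, ranged from 85.9 to 147 CPM in low RFI steers with a median of 117 CPM. In high RFI steers it ranged from 113 to 378 CPM with a median of 179 CPM. The high RFI steers were far more spread, with a coefficient of variation of 40.0% against 18.6%, and 3 of 7 low RFI steers lay below all high RFI steers. The log2 fold change was -0.88 (SE 0.21, edgeR adjusted p = 0.463, DESeq2 adjusted p = 0.0257). ANPEP, aminopeptidase N, a membrane enzyme that cleaves peptides including those left from glutathione breakdown, was the one gene of this group that was higher. It ranged from 6.00 to 21.1 CPM with a median of 11.6 CPM in low RFI steers and from 3.53 to 8.75 CPM with a median of 4.79 CPM in high RFI steers. Of the low RFI steers 4 lay above all high RFI steers and 3 within their range. Its log2 fold change was 1.10 (SE 0.25, edgeR adjusted p = 0.463, DESeq2 adjusted p = 0.024) and became 0.85 without steer 5632, the steer with the highest value.

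**Figure D2:**
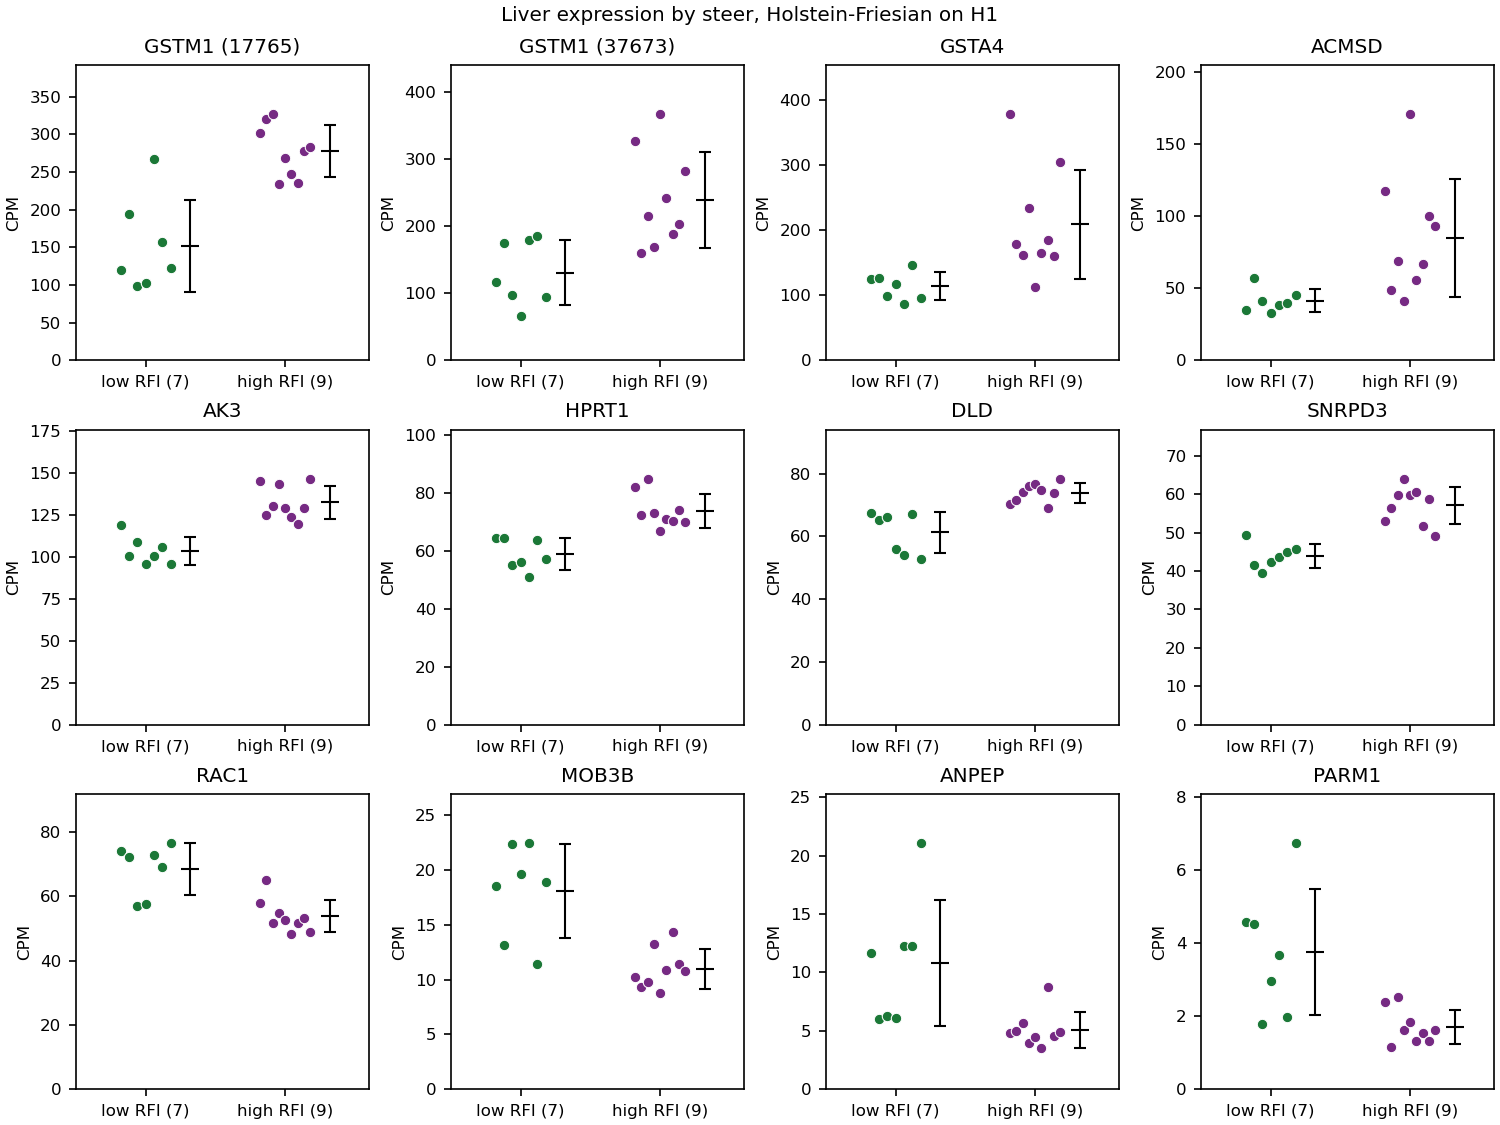
CPM (y axis, starting at 0) of 12 genes of the DESeq2 list in each of the 7 low RFI (green) and 9 high RFI (purple) HF steers on H1, with the mean and SD of each group in black; the GSTM1 identifiers are told apart by the end of their number. AK3, HPRT1 and DLD do not overlap between the groups, while GSTM1 (ENSBTAG00000017765) has 1 low RFI steer, at 268 CPM, among the high RFI steers.

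ACMSD and HSD17B6, both metabolic enzymes, were also lower in low RFI steers. ACMSD diverts an intermediate of tryptophan breakdown away from NAD synthesis and towards oxidation. Its levels ranged from 32.7 to 56.9 CPM, with a median of 39.7 CPM, in low RFI steers and from 41.3 to 171 CPM, with a median of 69.0 CPM, in high RFI steers. The low RFI steers were close together, with a coefficient of variation of 19.5%, and the high RFI steers spread over a wider range, with 48.2%. Its log2 fold change of -1.04 (SE 0.25, edgeR adjusted p = 0.556, DESeq2 adjusted p = 0.024) was the lowest of the 24 genes. When all 12 groups of the series were fitted together, edgeR called ACMSD with an adjusted p of 0.0676. This fit had no term for the steer and took libraries of the same steer in different phases as independent. Of the 13 genes called in that fit, ACMSD was the only 1 among these 24 genes. HSD17B6, a microsomal dehydrogenase of steroids and retinol, ranged from 830 to 1171 CPM in low and from 1025 to 1359 CPM in high RFI steers, with medians of 920 and 1178 CPM. Low RFI steer 1877, at 1171 CPM, was the only low RFI steer inside the high RFI range, and the log2 fold change was -0.36 (SE 0.09, edgeR adjusted p = 0.569, DESeq2 adjusted p = 0.0274).

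AK3, HPRT1 and CMPK1, enzymes of nucleotide metabolism, differed by less, and AK3 and HPRT1 separated all steers. AK3, the mitochondrial adenylate kinase that uses GTP, ranged from 95.6 to 119 CPM in low RFI steers with a median of 101 CPM and from 120 to 147 CPM in high RFI steers with a median of 129 CPM. Every low RFI steer lay below every high RFI steer. The log2 fold change was -0.35 (SE 0.07, edgeR adjusted p = 0.315, DESeq2 adjusted p = 0.00126), and the exact permutation p of 8.7e-05 is the smallest that 7 steers against 9 can give. HPRT1, which salvages hypoxanthine and guanine, ranged from 51.1 to 64.6 CPM in low and from 66.8 to 84.8 CPM in high RFI steers, with medians of 57.3 and 72.5 CPM. Again no low RFI steer reached the high RFI range, and the log2 fold change was -0.33 (SE 0.07, edgeR adjusted p = 0.463, DESeq2 adjusted p = 0.0111). CMPK1, the kinase of UMP and CMP, ranged from 40.6 to 53.7 CPM in low and from 50.2 to 62.9 CPM in high RFI steers, with medians of 46.2 and 58.9 CPM. For CMPK1 5 of 7 low RFI steers lay below all high RFI steers, and the log2 fold change was -0.29 (SE 0.08, edgeR adjusted p = 0.569, DESeq2 adjusted p = 0.072).

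DLD and SNRPD3 had differences of similar size. DLD encodes dihydrolipoamide dehydrogenase, the subunit shared by the pyruvate and 2-oxoglutarate dehydrogenases and the glycine cleavage system. It ranged from 52.8 to 67.5 CPM in low and from 69.0 to 78.3 CPM in high RFI steers, with medians of 65.2 and 74.0 CPM, and no steers overlapped. The log2 fold change was -0.27 (SE 0.07, edgeR adjusted p = 0.569, DESeq2 adjusted p = 0.0706), the smallest among the lower genes. SNRPD3, an Sm protein of the spliceosome core, had the smallest p of all genes in edgeR. It ranged from 39.6 to 49.4 CPM in low and from 49.2 to 64.0 CPM in high RFI steers, with medians of 43.6 and 58.8 CPM. A single low RFI steer, 1656, reached the range of the high RFI steers, and the log2 fold change was -0.38 (SE 0.07, edgeR adjusted p = 0.315, DESeq2 adjusted p = 0.00101). When steers were left out one at a time, SNRPD3 stayed between -0.41 and -0.35 on the log2 scale.

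Higher levels in low RFI steers were seen for 4 genes of small GTPase and actin regulation and for MOB3B. RAC1, a small GTPase that drives actin assembly at the membrane, ranged from 57.0 to 76.5 CPM in low and from 48.4 to 65.1 CPM in high RFI steers, with medians of 72.4 and 52.7 CPM. Of the 7 low RFI steers 5 lay above all high RFI steers. Its log2 fold change was 0.35 (SE 0.08, edgeR adjusted p = 0.463, DESeq2 adjusted p = 0.0376). DOCK8, an exchange factor for CDC42 known from leukocytes, ranged from 21.1 to 39.1 CPM in low and from 16.2 to 23.1 CPM in high RFI steers, with medians of 25.96 and 19.5 CPM. Its groups overlapped in 3 low RFI steers, and its log2 fold change was 0.54 (SE 0.13, edgeR adjusted p = 0.463, DESeq2 adjusted p = 0.0666). In bulk liver, more cells of a type that expresses a gene and more RNA per cell cannot be told apart. CYTH3, an exchange factor for ARF GTPases, ranged from 4.25 to 6.29 CPM in low and from 3.24 to 5.11 CPM in high RFI steers, with medians of 5.92 and 3.86 CPM. WHAMM, which promotes actin branching on Golgi and tubular membranes, ranged from 23.1 to 38.7 CPM in low RFI steers against 20.7 to 25.4 CPM, with medians of 28.6 and 22.8 CPM. For both genes 6 of 7 low RFI steers were above all high RFI steers. Their log2 fold changes were 0.51 (SE 0.12) and 0.37 (SE 0.09), with an edgeR adjusted p of 0.463 for either gene and DESeq2 adjusted p of 0.0257 and 0.0581. MOB3B belongs to the MOB family of kinase activators and had the smallest p among the higher genes. It ranged from 11.4 to 22.4 CPM in low and from 8.82 to 14.4 CPM in high RFI steers, with medians of 18.9 and 10.8 CPM. Low RFI steers 1877 and 2266 lay within the high RFI range, and the log2 fold change was 0.72 (SE 0.14, edgeR adjusted p = 0.315, DESeq2 adjusted p = 0.00606). Without steer 2266 the log2 fold change was 0.80 and edgeR called MOB3B with an adjusted p of 0.0568. Without steer 5632 it was 0.71, with an edgeR adjusted p of 0.629.

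Transcripts of 3 proteins of endosomal traffic, RAB4A, RAB40B and SNX24, were lower, while the related RAB40C had a log2 fold change of 0.03 (SE 0.11, edgeR adjusted p = 0.973). RAB4A, a GTPase of rapid recycling from early endosomes, ranged from 19.4 to 25.5 CPM in low and from 24.6 to 29.04 CPM in high RFI steers, with medians of 21.7 and 26.6 CPM. RAB40B, a RAB protein with a SOCS box, ranged from 7.96 to 13.2 CPM in low RFI steers against 12.1 to 16.7 CPM, with medians of 8.89 and 14.7 CPM. SNX24, a sorting nexin, lay between 26.5 and 41.9 CPM in low and between 39.8 and 53.8 CPM in high RFI steers, with medians of 35.4 and 44.1 CPM. For each of the 3 genes 6 of 7 low RFI steers lay below all high RFI steers. The log2 fold changes were -0.28 (SE 0.07) for RAB4A, -0.52 (SE 0.13) for RAB40B and -0.37 (SE 0.09) for SNX24, with edgeR adjusted p of 0.463 for the RAB genes and 0.569 for SNX24, and DESeq2 adjusted p of 0.0257, 0.0666 and 0.0994.

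The remaining genes were PARM1, GUCY2D, LANCL2, ANKS6 and ENSBTAG00000032859, all but LANCL2 expressed at low levels. PARM1, a mucin-like membrane protein, ranged from 1.80 to 6.73 CPM in low and from 1.17 to 2.54 CPM in high RFI steers, with medians of 3.68 and 1.62 CPM. Its log2 fold change of 1.14 (SE 0.25, edgeR adjusted p = 0.437, DESeq2 adjusted p = 0.024) was the highest of the 24 genes and was 0.93 without steer 5632. GUCY2D, a membrane guanylate cyclase best known from the retina, ranged from 0.79 to 1.47 CPM in low and from 1.47 to 2.85 CPM in high RFI steers, with medians of 1.15 and 1.92 CPM. It had 6 low RFI steers below all high RFI steers and a log2 fold change of -0.86 (SE 0.19, edgeR adjusted p = 0.437, DESeq2 adjusted p = 0.024). LANCL2, a LanC-like protein at the membrane, and ANKS6, a protein of the primary cilium, were higher in low RFI steers, with log2 fold changes of 0.42 (SE 0.10) and 0.60 (SE 0.16). LANCL2 ranged from 9.78 to 11.99 CPM in low and from 6.54 to 10.6 CPM in high RFI steers, with medians of 10.3 and 7.78 CPM (edgeR adjusted p = 0.463, DESeq2 adjusted p = 0.072). ANKS6 lay between 1.87 and 4.38 CPM in low and between 1.89 and 2.54 CPM in high RFI steers, with medians of 3.01 and 2.13 CPM (edgeR adjusted p = 0.569, DESeq2 adjusted p = 0.0994). Low RFI steer 1877 had the lowest ANKS6 level of all 16 steers, while the other 6 low RFI steers lay above all high RFI steers. ENSBTAG00000032859, which has no name here, ranged from 1.98 to 3.53 CPM in low and from 3.78 to 5.11 CPM in high RFI steers without overlap, with medians of 2.75 and 4.08 CPM and a log2 difference of -0.67 (SE 0.14, edgeR adjusted p = 0.315, DESeq2 adjusted p = 0.0155).

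For 2 genes of the DESeq2 list the counts were too low for edgeR's filter. LOC782233, annotated as a pseudogene, had 0 to 3 reads in each low RFI steer and 0 to 353 reads in each high RFI steer, or 7 and 518 reads in all. Most of its reads came from high RFI steer 2101, and without that steer the level over the pooled reads was 0.0473 CPM for low and 1.127 CPM for high RFI steers. DESeq2 gave it a log2 fold change of -5.45 with an adjusted p of 0.00611, and 0.034 without steer 2101. Run without the filter, edgeR gave LOC782233 an adjusted p of 0.731. FCER1A, the alpha chain of the high-affinity IgE receptor of mast cells and basophils, had 2 to 63 reads in low and 1 to 5 reads in high RFI steers, 103 and 22 reads in all. Steer 5632 held 63 of the 103 reads, and the medians were 8 reads for low and 2 reads for high RFI steers. DESeq2 gave a log2 fold change of 2.20 (adjusted p = 0.0684) and no adjusted p when steer 5632 was left out. The edgeR adjusted p of FCER1A without the filter was 0.487. FCER1A was the only one of 135 marker symbols of liver and other cell types that could be matched, so the part of other cell types in the differences was not tested.

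Among the 12 named genes with the smallest edgeR p in the higher direction, 3 were not called by DESeq2. CHI3L2, a chitinase-like secreted protein, had a log2 fold change of 3.75 (SE 1.14, edgeR adjusted p = 0.715). In the fit of all 12 groups together, which had no term for the steer, edgeR called CHI3L2, with an adjusted p of 0.00858. Steer 5632 was at 123 CPM, while the other 6 low RFI steers ranged from 0.54 to 3.65 CPM and the high RFI steers from 0.36 to 2.98 CPM. Without steer 5632 the log2 fold change was 0.24. MID1, a microtubule-bound ubiquitin ligase, had a log2 fold change of 0.34 (SE 0.12, edgeR adjusted p = 0.715) that stayed between 0.29 and 0.39 with any single steer left out, with levels of 4.93 to 6.73 CPM in low and 3.57 to 5.72 CPM in high RFI steers. PLXDC2, a membrane protein with a plexin domain, had a log2 fold change of 0.51 (SE 0.21, edgeR adjusted p = 0.715) that was 0.22 without steer 5632, where it was at 25.6 CPM.

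Of 21 lists of genes by function, no list could be described as a whole, because names were known for 328 of the 24616 identifiers. The best matched list, acute phase proteins, had 31.4% of its symbols matched, under the 80% set as a minimum, so that counts over lists are void. Of the listed genes that DESeq2 did not call, PRDX6, a peroxiredoxin of the antioxidant response, had a log2 fold change of -0.19 (SE 0.13, edgeR adjusted p = 0.801), and EPHX1, microsomal epoxide hydrolase, -0.13 (SE 0.13, edgeR adjusted p = 0.861). GLDC, the decarboxylase of the glycine cleavage system to which DLD belongs, had 0.02 (SE 0.15, edgeR adjusted p = 0.989). UOX, urate oxidase of purine breakdown, had -0.13 (SE 0.19, edgeR adjusted p = 0.919). TKFC, a triose kinase, had -0.35 (SE 0.14, edgeR adjusted p = 0.718).

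The steers differed in how many of the 24 genes they shared with the opposite group. Low RFI steer 5632 lay within the range of the high RFI steers, or beyond it on their side, for 1 gene, ACMSD, while low RFI steer 1877 did so for 10 genes and steer 2068 for 9 genes. Among high RFI steers the number ran from 3 genes for steer 5624 to 9 genes for steers 2069 and 5608. After the group means were removed, the levels of the 24 genes did not vary together in a way that passed correction. Of 276 pairs, 0 had a Benjamini-Hochberg adjusted p under 0.05 (permutation test with 100000 resamples), and the median Pearson r was -0.01. The strongest positive pair was DLD and CMPK1, with r = 0.683 (permutation p = 0.00399, adjusted p = 0.447) and a Spearman coefficient of 0.7 (permutation p = 0.00303, adjusted p = 0.623), and r was 0.558 without the 2 steers farthest from the median of DLD. The GSTM1 identifiers had r = 0.621 (permutation p = 0.00816, adjusted p = 0.447) and a Spearman coefficient of 0.532 (permutation p = 0.0363, adjusted p = 0.623), and r was 0.582 without 2 steers. Among the named genes tested, the strongest correlation with SNRPD3 was negative, that of MYCL, with r = -0.758 (permutation p = 0.00055, adjusted p = 0.349 over 634 pairs) and a Spearman coefficient of -0.662 (permutation p = 0.00623, adjusted p = 0.997), and r was -0.572 without 2 steers. The strongest correlation with MOB3B was also negative, that of ASPG, with r = -0.728 (permutation p = 0.00125, adjusted p = 0.396) and a Spearman coefficient of -0.668 (permutation p = 0.00541, adjusted p = 0.997), and r was -0.592 without 2 steers. The strongest positive correlations were those of KRT8 with SNRPD3, with r = 0.592 (permutation p = 0.0165, adjusted p = 0.991), a Spearman coefficient of 0.538 (permutation p = 0.0337, adjusted p = 0.997) and r = 0.339 without 2 steers, and of CACNA1H with MOB3B, with r = 0.592 (permutation p = 0.0157, adjusted p = 0.991), a Spearman coefficient of 0.582 (permutation p = 0.0197, adjusted p = 0.997) and r = 0.575 without 2 steers. These values are over 16 steers and describe them only.

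On a common scale for all 90 libraries, the low RFI HF steers on H1 were the group at the end of the range for most of these genes. Their mean was the lowest of the 12 groups for 12 of the 15 lower genes and the highest for 7 of the 9 higher genes. Over all genes the same group was lowest for 12.4% and highest for 12.1%, but among the 441 genes lower at an unadjusted p under 0.05 it was lowest for 61.2%, and among the 422 higher genes it was highest for 59.5%. Without steer 5632 the counts were 11 of 15 and 5 of 9, beside 10.8% and 8.71% of all genes. Among the same 441 lower and 422 higher genes the shares were then 56.9% and 45.0%. The 15 and 9 genes were chosen on the HF values on H1, so these counts are descriptive. On H1, GSTA4 averaged 101 ± 19.1 CPM (SD, n = 7) for low RFI and 186 ± 74.3 CPM (SD, n = 9) for high RFI HF steers, while the means of the other 10 groups lay between 182 and 406 CPM. AK3 was at 92.4 ± 7.9 CPM in low RFI and 118 ± 8.9 CPM in high RFI HF steers on H1, and MOB3B was at 16.1 ± 3.8 and 9.8 ± 1.6 CPM. For SNRPD3 and RAB40B it was the high RFI HF steers on H1 that had the highest mean of the 12 groups, 50.9 ± 4.4 CPM and 12.8 CPM. These levels are from one normalization over all libraries and therefore differ from those given above for the 16 libraries alone.

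**Figure D3:**
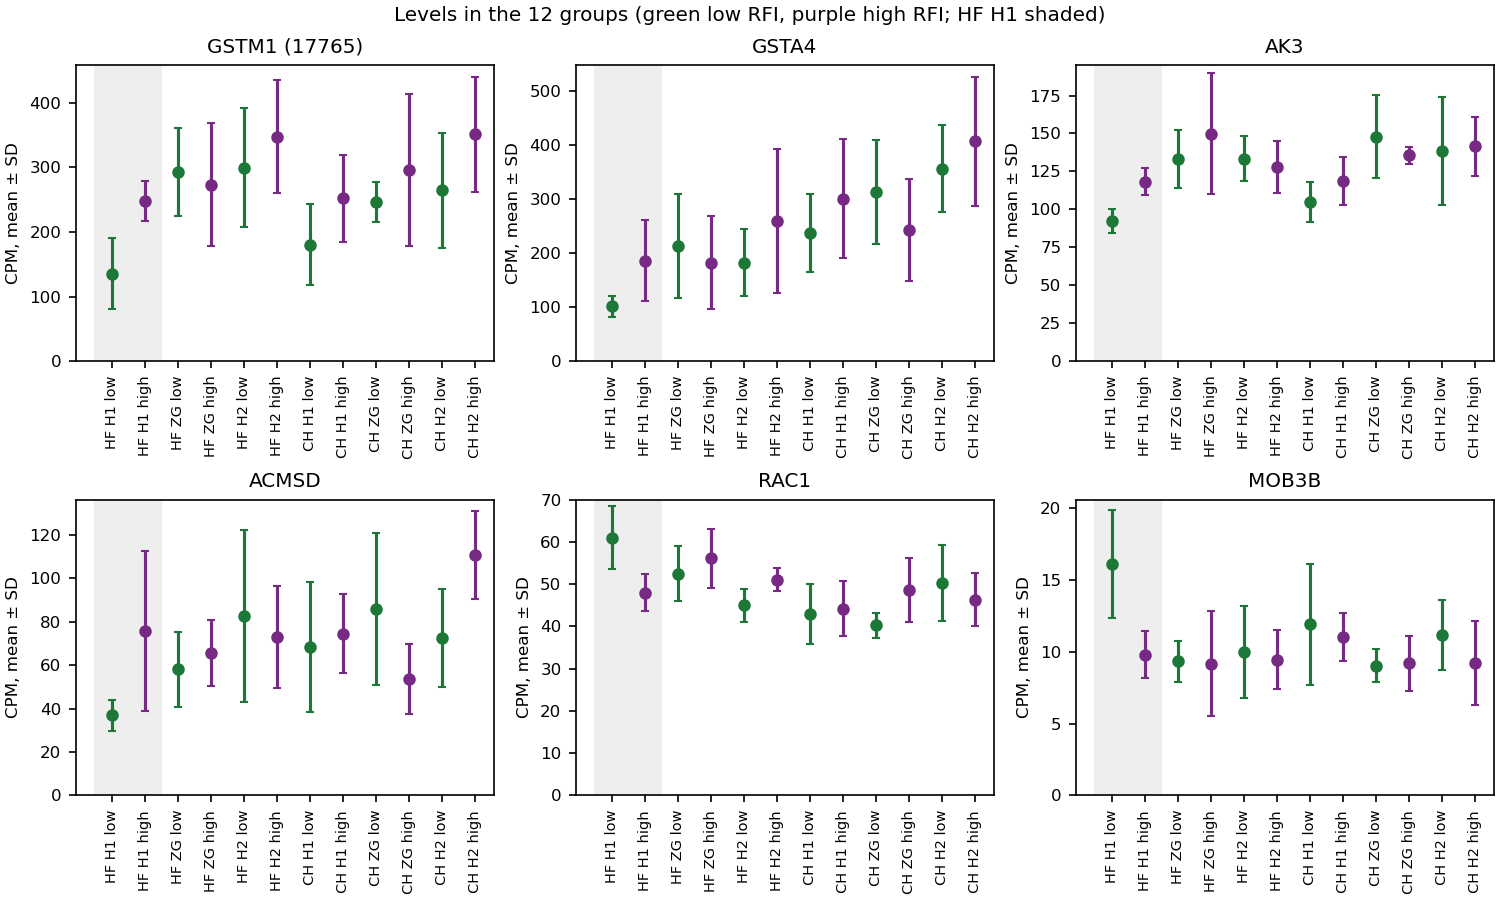
Mean and SD of CPM (y axis, starting at 0) of 6 genes in the 12 groups of breed, phase and RFI (x axis), on a scale common to all 90 libraries, with low RFI in green, high RFI in purple and the HF groups on H1 shaded. The low RFI HF steers on H1 have the lowest mean for GSTM1 (ENSBTAG00000017765), GSTA4, AK3 and ACMSD and the highest for RAC1 and MOB3B.

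Whether the differences between RFI groups on H1 were particular to HF was tested against Charolais (CH) steers on the same diet, 9 low and 11 high RFI. The interaction of breed and RFI was significant for 0 of 13454 genes in edgeR (0%), while 1271 genes (9.45%) had an unadjusted p under 0.05 and DESeq2 called 30 (0.22%). Of the 24 genes, 19 had the same sign in CH, against 48.4% of all genes tested in both. In edgeR 0 of them was called in CH, where 2 of all 12920 genes were (0.0155%). An unadjusted edgeR p under 0.05 was seen in CH for 5 of the 24 (11.7% of all genes). With 2 edgeR calls over all genes, the count of 0 says little about these 24 genes. The difference between breeds had an unadjusted p under 0.05 for 14 of the 24 genes and an adjusted p under 0.1 in edgeR for 0. The 24 genes were chosen on the HF values that enter this difference, so that the first count is no evidence of a difference between breeds. The 15 lower genes had a median log2 fold change of -0.11 in CH and the 9 higher genes of 0.09, compared with -0.38 and 0.54 in HF. For the glutathione S-transferases the CH values were -0.47 (SE 0.22) and -0.38 (SE 0.22) for the GSTM1 identifiers and -0.33 (SE 0.21) for GSTA4, and the difference between breeds was -0.40 (SE 0.30, edgeR adjusted p = 0.686) for GSTM1 (ENSBTAG00000017765). The sign was opposite in CH for GUCY2D, WHAMM, RAC1, LANCL2 and ENSBTAG00000032859. GUCY2D was at 0.49 (SE 0.24) in CH, a difference of -1.36 (SE 0.33, edgeR adjusted p = 0.224, DESeq2 adjusted p = 0.0676), and WHAMM was at -0.20 (SE 0.10) in CH, a difference of 0.57 (SE 0.14, edgeR adjusted p = 0.224, DESeq2 adjusted p = 0.0621). Outside the 24 genes, NOCT, a circadian gene that encodes nocturnin, had the smallest DESeq2 adjusted p of the named genes, 0.00861. Its log2 fold change was -1.14 (SE 0.43) in HF and 1.88 (SE 0.42) in CH, a difference of -3.02 (SE 0.64, edgeR adjusted p = 0.224). In HF it ranged from 1.93 to 5.61 CPM in low and from 2.58 to 22.5 CPM in high RFI steers, with medians of 3.88 and 6.05 CPM.

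In the other direction, DESeq2 called 160 genes between the RFI groups of CH steers on H1, of which 156 were tested in HF on H1. Of these 156 genes 15 had an unadjusted edgeR p under 0.05 in HF (9.62%, beside 6.63% of all genes), and 73 had the same sign. Among the 15, the same sign was seen for 2 of the 7 genes higher in low RFI CH steers and 5 of the 8 lower genes. The 81 genes higher in low RFI CH steers had a median log2 fold change of -0.07 in HF and the 75 lower genes of 0.00. These counts are descriptive, as edgeR called 0 genes of any kind in HF.

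**Figure D4:**
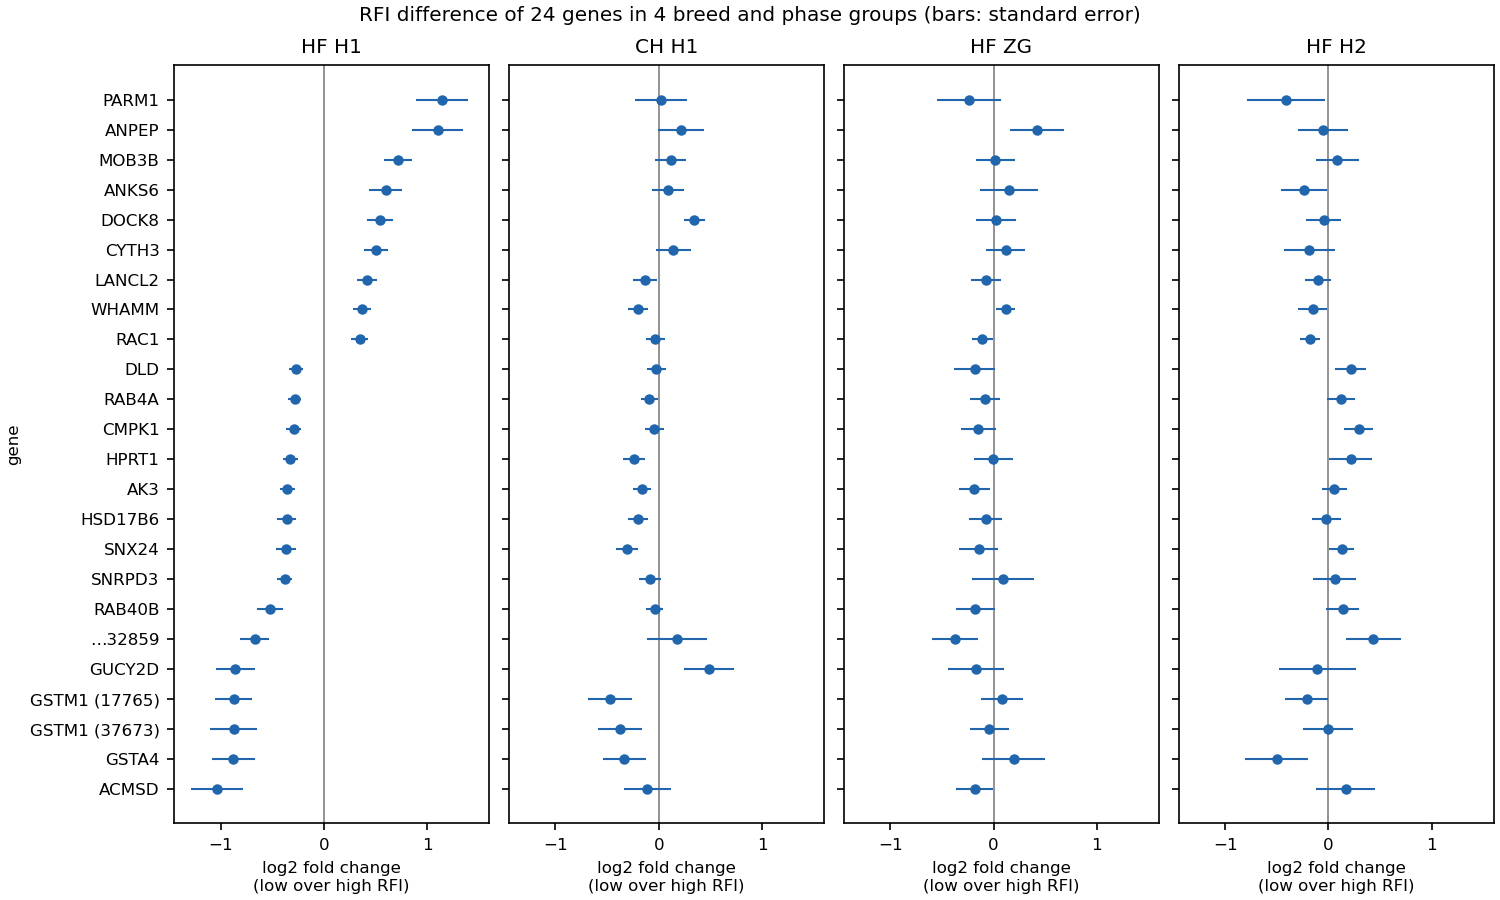
Log2 fold change of low over high RFI (x axis) with its standard error for the 24 tested genes of the DESeq2 list (y axis) in HF on H1, CH on H1, HF on zero-grazed grass (ZG) and HF on H2. The 15 lower genes have a median of -0.38 in HF on H1, -0.11 in CH on H1, -0.15 on ZG and 0.12 on H2, and 6 of the 24 genes keep their sign on H2.

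RFI was ranked anew on zero-grazed grass (ZG) and on the second high-concentrate diet (H2), and 6 of the 16 steers had a library in a later phase. On ZG, with 10 low and 8 high RFI steers, 18 of the 24 genes had the same sign as on H1 (50.6% of all genes), 0 had an unadjusted p under 0.05 (2.09% of all genes), and the medians were -0.15 for the lower and 0.02 for the higher genes. On H2, with 5 low and 8 high RFI steers, 6 of the 24 had the same sign (37.1% of all genes), 0 had an unadjusted p under 0.05 (3.47% of all genes), and the medians were 0.12 and -0.15. The labels give the number of 1 low RFI HF steer on H2 also to a low RFI CH steer on H1, so the identity of these libraries is in doubt. Without them 7 of the 24 had the same sign on H2, with medians of 0.07 and -0.09, and 19 in CH on H1, with medians of -0.16 and 0.09. The libraries of the phases are different but 3 steers are shared between H1 and ZG and 4 between H1 and H2. Of the 6 steers, 3 changed RFI group, so these comparisons are not fully separate. The interaction of phase and RFI called 0 of 13261 genes for H1 against ZG (0%) and 1 of 13270 genes for H1 against H2 (0.00754%).

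For the 24 genes, the difference between H1 and H2 had an unadjusted p under 0.05 for 21 genes (8.81% of all genes) and that between H1 and ZG for 11 genes (3.46% of all genes), but 0 passed adjustment in edgeR. These counts, too, follow in part from the choice of the genes on the H1 values and are no evidence of a difference between phases. DESeq2 called 11 genes between H1 and H2 (0.0701%) and 0 between H1 and ZG (0%). RAC1 was at 0.35 on H1 and at -0.18 (SE 0.09) on H2, a difference of 0.52 (SE 0.12, edgeR adjusted p = 0.287, DESeq2 adjusted p = 0.0498). CMPK1 was at -0.29 on H1 and at 0.29 (SE 0.14) on H2, a difference of -0.60 (SE 0.14, edgeR adjusted p = 0.287, DESeq2 adjusted p = 0.0775). GSTM1 (ENSBTAG00000017765) was at 0.08 (SE 0.20) on ZG, a difference of -0.95 (SE 0.28, edgeR adjusted p = 0.999). The gene called between H1 and H2 was ENSBTAG00000014758, which has no name here. It ranged from 0.79 to 2.10 CPM in low and from 1.44 to 2.72 CPM in high RFI steers on H1, with medians of 1.05 and 1.98 CPM. On the log2 scale low RFI steers were at -0.73 (SE 0.20) relative to high RFI steers on H1 and at 0.90 (SE 0.23) on H2, and the difference was -1.64 (SE 0.30, edgeR adjusted p = 0.0802). DESeq2 gave the difference an adjusted p of 0.00155. In edgeR 0 genes were called without steer 5632 on H1, and 0 without 1 of the low RFI steers on H2.

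The steers with 2 libraries gave a view within animals. Steer 5632 was low RFI on H1 and ZG and high RFI on H2, and its GSTM1 (ENSBTAG00000017765) level was 109 CPM on H1, 218 CPM on ZG and 461 CPM on H2. Steer 2071 was high RFI on H1 and low RFI on H2, and its level was 241 and 327 CPM, respectively. Steer 2220 was low RFI in both phases, with 240 and 185 CPM. The later library was higher both where the RFI label went from low to high and where it went from high to low. Steer 2065 went from high RFI on H1 to low RFI on ZG, with 294 and 392 CPM. Steers 2069 and 2101 were high RFI in both of their phases, with 208 CPM on H1 and 259 CPM on ZG and with 222 CPM on H1 and 426 CPM on H2. For AK3 the levels of steer 5632 were 84.8, 120 and 116 CPM on H1, ZG and H2. Steer 2065, which also changed group, was at 117 and 116 CPM, and steer 2071 at 116 and 130 CPM. Among the steers that kept their group, AK3 was at 90.1 and 129 CPM in steer 2220, at 128 and 178 CPM in steer 2069 and at 111 and 121 CPM in steer 2101. These are single animals, without a test. For steers 2069 and 2220, the H1 library correlated more strongly with a later library of another steer than with their own, in deviations from group means.

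When 1 steer at a time was left out, DESeq2 called between 13 genes, without steer 5632, and 53 genes, without steer 2266. A set of 8 genes was called in all 16 of these fits, namely SNRPD3, AK3, GSTM1 (ENSBTAG00000017765), MOB3B, HPRT1, ACMSD, RAB4A and HSD17B6. Some genes were given no adjusted p in part of the fits. Of these, ENSBTAG00000032859, PARM1 and ANPEP were called in all 15 fits that gave one, and GUCY2D and LOC782233 in all 14. FCER1A was called in 4 of 11 such fits. DOCK8, RAB40B, GSTM1 (ENSBTAG00000037673), DLD, CMPK1, LANCL2, ANKS6 and SNX24 were called in 4 to 7 of the 16 fits. Without steer 5632, 10 of the 26 genes were still called. The sign of the edgeR log2 fold change was kept by the 24 tested genes in the 16 edgeR fits that left out 1 steer. These genes were chosen on the same 16 steers, so a kept sign is descriptive and not independent evidence.

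**Figure D5:**
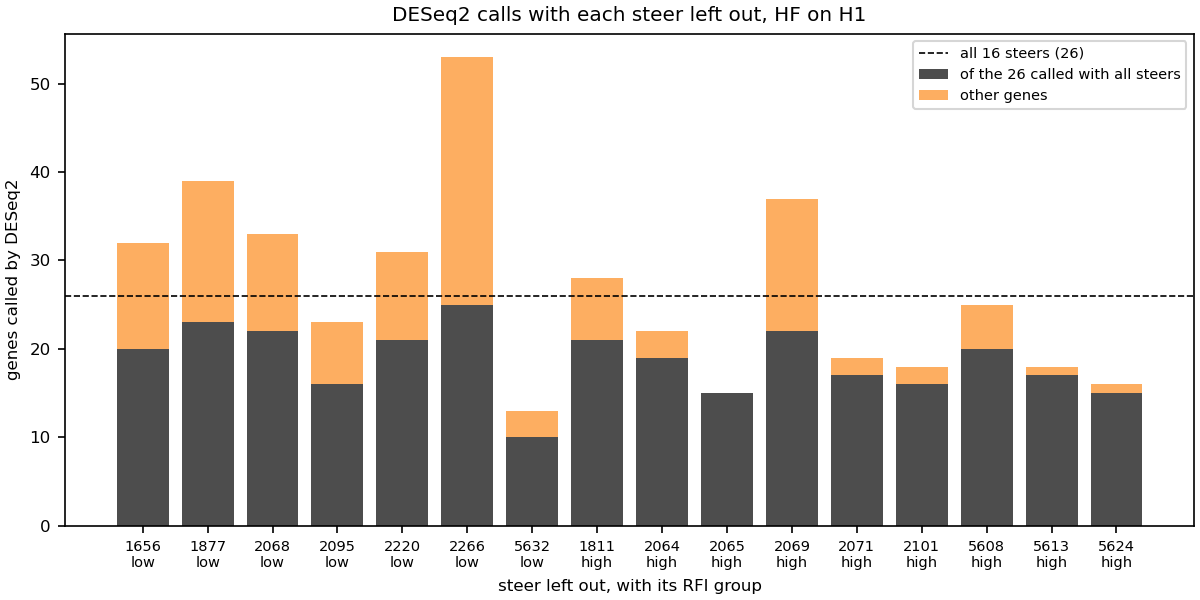
Number of genes called by DESeq2 at an adjusted p under 0.1 (y axis) with each of the 16 HF steers on H1 left out (x axis), split into genes among the 26 called with all steers (dark) and other genes (orange). The total ran from 13 without steer 5632 to 53 without steer 2266, and the part of the 26 still called from 10 to 25.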

How the data were processed

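Liver RNA of the steers was sequenced by the authors as single-end reads, trimmed, aligned with STAR to UMD3.1 (version 2.5.3a in the submitters' processing notes, which also name CASAVA 1.8 and FastQC 0.11.5) and counted per Ensembl gene. The authors deposited these counts without normalization, so trimming, alignment and counting could not be varied here. The library kit keeps strand, but which strand setting was counted is not given in the sources used here, so antisense pairs are uncertain. The counts of 24616 genes in 90 libraries were read and each column was tied to its steer by title. Names were taken from the study's gene lists, which hold 352 identifiers, 328 with a symbol, and 318 of the named genes were tested. No position was used.

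The 16 HF libraries on H1 were fitted alone with edgeR 4.0.16 (R 4.3.3), with TMM normalization, edgeR's filter on low counts, robust quasi-likelihood F test and Benjamini-Hochberg adjustment over all 13025 genes, and called at an adjusted p under 0.1. SE is the size of the log2 fold change divided by the root of F. A two-sided exact permutation test over 11440 splits was run on log2 CPM (prior count of 2) for each gene. Differences between breeds or phases were interaction terms over 4 groups. DESeq2 1.42.0, limma 3.58.1 with voom and sample quality weights and other settings were alternatives. The fits were tested on simulated data. Named genes were, by rule, the 12 with the smallest p in each direction, the study's list for this comparison, up to 4 per function list, genes called under another setting, up to 4 per difference test, and the 5 correlated most strongly, in either direction, with SNRPD3 and MOB3B, of which the first and the strongest positive one are given. HP, FGG, LBP, F5 and ENSBTAG00000014758 were chosen after their values were seen. The comparison, the lists and the members were chosen with earlier results of these data known.

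Numbers pair libraries of the same steer: 7 pairs of H1 with ZG or H2 libraries from 6 steers had correlations of deviations from group means between 0.0724 and 0.444, with a median of 0.246, and the own number gave the highest for 5 of 7. The exceptions were steers 2069 and 2220. Steer 2069 had 0.444 on ZG against at most 0.483 for other steers, and steer 2220 had 0.0724 on H2 against at most 0.135. No steer is in both RFI groups on H1, so the block enters only the differences between phases. Library depth, 9097695 to 47640205 reads, limits the precision for weakly expressed genes, and p-values cover the spread between steers.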

Additional observations from a re-analysis of the deposited data

Results flagged for a closer look

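HSD17B6 in low RFI HF steers on H1 was flagged because steer 1877, at 1171 CPM, lay far from the other 6, which ranged from 830 to 953 CPM.

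CHI3L2 in low RFI HF steers on H1 was flagged because steer 5632, at 123 CPM, lay far from the other 6, which ranged from 0.54 to 3.65 CPM. Of 62 groups of values checked for such a gap 2 were flagged, and chance flags about 1 in 20.

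ENSBTAG00000014758 was flagged because its difference between RFI groups was not the same on H1 and H2 in the test of the interaction, with a difference in log2 fold change of -1.64 (SE 0.30, edgeR adjusted p = 0.0802). In edgeR 0 genes were called for this difference without steer 5632 on H1, and 0 without 1 of the low RFI steers on H2. The cause was not tested.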

How the results depend on the processing

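Over the 28 alternatives for the comparison of RFI groups in HF on H1, 21 called 0 genes, as edgeR with all steers did. Counts differed with DESeq2, with or without replacement of outlying counts (26 genes each), edgeR's likelihood ratio test (9), limma-voom (1), and all 12 groups in one fit (13). Leaving out each steer gave 0 to 1 calls in edgeR (GSTM1 ENSBTAG00000017765 without steer 2220, MOB3B without steer 2266) and 13 to 53 in DESeq2, the latter chosen after seeing the data. With DESeq2, the breed difference on H1 had 30 calls and the difference between H1 and H2 11. In edgeR the breed difference had 0 calls without steer 5632, and the one fit over 12 groups gave 2 for H1 against ZG. For H1 against H2 0 genes were called with the threshold lowered to an adjusted p under 0.05, and likewise in limma-voom with sample weights, without a filter, with at least 10 counts in every library, with all 12 groups in one fit and without steer 5632 on H1 or without 1 low RFI steer on H2 (0 to 0 calls when such steers were left out). With a block for the steer (replicate block) fitted by limma-voom, 0 genes were called for H1 against ZG and 1 for H1 against H2, with an adjusted p of 0.04. The same limma-voom fit without weights or block, added after seeing the data, also called 0 and 1, so that the block changed neither count. No paired analysis was possible for low against high RFI on H1 because no steer is in both groups. The causes of these shifts were not tested. Of 755 values for 27 named genes under the alternatives, 693 kept direction and call, 62 gained a call and 0 reversed. As edgeR with all steers called 0 genes, no call could be lost. The 27 genes were chosen on these same libraries, and the DESeq2 fit that chose 24 of them is itself 1 of the alternatives. The counts are therefore descriptive and not independent evidence of stability. The unadjusted count was 863, and 574 with all 12 groups in one fit, and for the breed difference 1271 and 651. For H1 against ZG it was 459, with 708 in limma-voom and 779 without a filter. Counts under the filter, such as those of LOC782233 and FCER1A, and the depth of 9097695 reads in the shallowest library limit what can be seen of weakly expressed genes.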

Other observations

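Some acute phase transcripts varied widely between HF steers on H1 within both RFI groups. HP, haptoglobin, which binds free haemoglobin, ranged from 39.1 to 8426 CPM in low RFI steers, with a median of 80.4 CPM, and from 44.4 to 6399 CPM in high RFI steers, with a median of 235 CPM. Its log2 fold change was 0.01 (SE 1.29, edgeR adjusted p = 1) and became -1.77 without steer 5632, the steer with the highest value. LBP, the lipopolysaccharide-binding protein, lay between 57.3 and 536 CPM in low and between 110 and 487 CPM in high RFI steers. SERPINA3, an inhibitor of serine proteases, lay between 353 and 1154 CPM in low and between 426 and 2030 CPM in high RFI steers. By contrast F5, coagulation factor V, ranged only from 730 to 1068 CPM over all 16 steers.

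CIDEC and DGAT2, a lipid droplet protein and an enzyme of triglyceride synthesis, were both highest in high RFI steer 2065, at 34.2 and 158 CPM, while the other high RFI steers reached at most 2.87 and 47.1 CPM.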
